A study of Mus musculus with 8 samples.

Results

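The genes for RNA polymerase II, its general transcription factors and Mediator were followed in 2-cell mouse embryos. Members were taken by symbol, which had to begin with Polr2a to Polr2m, Gtf2, Taf and a digit, or Med and a digit, and the RNA polymerase I factors Taf1a to Taf1d were left out. The rule used no measured difference between groups, although the brightest probeset stood for a gene with several. It found 58 of the 14995 genes that had a probeset carrying 1 gene symbol. Of the 58, 56 were bright enough to be tested among 11444 genes, with a mean over log2 2.07, the 30th percentile of the probesets. Of these 56, 2 (Gtf2a1l and Gtf2ird1) passed that level only through the nonTG arrays, where both were highest, so their tests rest in part on the group that let them in. The RNA polymerase II subunit Polr2l and the pseudogene Polr2d-ps2 lay under that level and are described without a test. Another 23 protein-coding genes that RefSeq lists under the same symbols, among them Taf1, Taf6, Taf10, Taf12, Med7, Med21, Med31 and Polr2h, had no probeset of 1 symbol and were not analysed here. The paralogs Taf7l and Med12l were among these 23.

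The arrays measured total RNA of embryo pools whose groups differ by the father. C57BL/6 females, superovulated with 5 IU of eCG and hCG, were mated with KDM1A TG, nonTG or C57BL/6 males, and embryos were flushed from the oviducts 46 to 48 h after hCG. KDM1A is a histone lysine demethylase, and the KDM1A TG sires carried a transgene of it. The nonTG sires are named by that label alone. Every mother was C57BL/6, so the KDM1A TG, nonTG and C57BL/6 labels name the sire. There were 3 KDM1A TG, 2 nonTG and 3 C57BL/6 arrays, each from a pool that held 26 embryos on average. The promoter that drives the transgene, the genotype of the embryos, the meaning of the numeral in the titles TG3 and nonTG3, and whether pools of a group had different fathers go unstated in the sources used here. The p-values therefore measure pool-to-pool spread alone, which may be technical. Kdm1a itself had no probeset of 1 symbol and was not analysed here.

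RNA polymerase II makes messenger RNA. At a promoter, TFIID, built from the TATA-binding protein and its associated factors (TAFs), marks the start site, TFIIA and TFIIB hold it there, TFIIF escorts the polymerase, and TFIIE and TFIIH open the DNA. Mediator carries signals from factors bound at enhancers to this assembly through its head, middle, tail and kinase modules. In the mouse, the embryo begins major transcription of its own genome at the 2-cell stage, while messages stored in the egg are being cleared.

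The arrays differed in ways that touch every result. Their medians lay between 2.73 and 2.86 on the log2 scale. Interquartile ranges were 2.38 in KDM1A TG replicate 1 and 2.60 in replicate 3, against 1.87 to 2.09 on the other 6 arrays, so these 2 arrays were wider. The 19 oviduct epithelium markers with a probeset had mean log2 levels of 5.21 to 6.18 in KDM1A TG, 5.60 to 5.74 in nonTG and 4.92 to 5.54 in C57BL/6 pools. Of these 19 markers, 18 lay above 0 in KDM1A TG against C57BL/6 and 18 in nonTG against C57BL/6. The 18 stroma and muscle markers had mean levels of 4.45 to 5.97 in KDM1A TG, 3.90 to 5.35 in nonTG and 3.59 to 4.39 in C57BL/6 pools. Of these, 18 lay above 0 for KDM1A TG and 15 for nonTG against C57BL/6, and 2 passed in the first comparison, where 0.725% of genes tested did. The 8 blood and immune markers had mean levels of 3.92 to 4.18 in KDM1A TG, 3.17 to 4.29 in nonTG and 3.61 to 4.94 in C57BL/6 pools. In KDM1A TG against C57BL/6, 5 of the 8 lay above 0, with a median change of 0.16. There 1 of them passed, lower, where 8 of 11444 genes tested passed lower. In nonTG against C57BL/6, 2 of the 8 lay above 0. The markers S100a8 and S100a9 were highest in C57BL/6 replicate 1, at 7.49 and 6.41. The 15 maternal oocyte genes, which mark the embryos themselves, had mean levels of 4.45 to 5.14 in KDM1A TG, 4.05 to 4.62 in nonTG and 4.27 to 5.15 in C57BL/6 pools. No marker was at 0 on these log2 arrays, but neither was any probeset, as the lowest value per array was 0.12 to 0.43. This does not show that a marker was present. In such pools, fewer cells of a type and less RNA per cell cannot be told apart. The part of these cells in the results was not tested, beyond a fit with the oviduct mean as a covariate.

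None of the 56 tested members passed an adjusted p of 0.05 with limma in any comparison of sire groups. In KDM1A TG relative to C57BL/6, 0 members passed, where 0.725% of all genes tested did, and 4 members (Polr2g, Med9, Gtf2i and Gtf2e2) reached an unadjusted p under 0.05, all higher, where 12.1% of genes tested were higher at that level and 2.1% lower. In nonTG relative to C57BL/6, 0 members passed against a background of 0.131%, and 1 member was higher at that unadjusted level and 0 lower, against 4.61% and 3.62% of genes tested. That member was Gtf2a1l, which passed the filter only through the nonTG arrays. Between KDM1A TG and nonTG pools, 0 members passed against a background of 0.0437%, and 6 were higher (Taf7, Gtf2h1, Gtf2e2, Polr2f, Med25 and Med13l) and 1 lower (Gtf2a1l again) at the unadjusted level, against 4.97% and 1.43% of genes tested. With both kinds of sires together against C57BL/6, 0 members passed against a background of 1.32%, and 3 were higher and 0 lower at the unadjusted level, against 10.1% and 2.63% of genes tested. Weighting each array by its estimated quality let 4 members pass for KDM1A TG against C57BL/6, where 14.8% of all genes then passed, and 2 members pass for both kinds together, where 6.42% did. In the fit of the sire groups, the weights were 2.49 for KDM1A TG replicate 1, a wide array, and 2.02 for C57BL/6 replicate 1. All other arrays had weights of 0.53 to 1.07, so the weighted KDM1A TG against C57BL/6 values lean on 1 array per group. Under these weights 0 members passed in nonTG relative to C57BL/6, where 0.411% of genes did, or between KDM1A TG and nonTG, where 0.0262% did. The comparisons share arrays, so their values are given side by side and not as separate evidence.

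Members stood above 0 for KDM1A TG against C57BL/6 in 46 of 58 cases, with a median log2 change of 0.23, against 0.06 over all genes and 0.18 over genes tested, of which 64.9% were above 0. Quantile normalization put that median at 0.03 and cyclic loess at -0.02. In the nonTG pools, relative to C57BL/6, 28 of 58 members were above 0, with a median of -0.10. The median was 0.03 over all genes and 0.04 over genes tested, of which 53.2% were above 0. The members' median was 0.09 without nonTG replicate 1 and 0.08 with the oviduct mean as a covariate. With KDM1A TG set against nonTG, 44 of 58 members were above 0, with a median of 0.30. The median was 0.06 over all genes and 0.16 over genes tested, of which 65.4% were above 0. Without nonTG replicate 1 the members' median was 0.12, and the scalings gave 0.12 (quantile) and 0.14 (cyclic loess).

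Among the 56 tested members, for KDM1A TG against C57BL/6 there were 11 with every KDM1A TG array above every C57BL/6 array and 0 with every array below, against 14.5% and 5.34% of genes tested. Of nonTG against C57BL/6 arrays, there were 9 above and 7 below, against 15.4% and 9.41%, and the 9 include Gtf2a1l and Gtf2ird1. Of KDM1A TG against nonTG arrays, there were 17 above and 2 below, against 16% and 6.38%, and the 2 are these same genes. These counts used the deposited values, on which KDM1A TG replicates 1 and 3 were wider, and were not repeated after rescaling. Of the 58 members, 18 had their lowest value in nonTG replicate 1, where 12.7% of genes tested did, and 0 had it in KDM1A TG replicate 1 or 3, where 6.24% and 7.3% of genes tested did. The KDM1A TG arrays held the highest value of 11, 11 and 12 of the 58 members, where 15.9%, 9.17% and 26.1% of genes tested had theirs. The share of members above their own mean was 77.6, 56.9 and 62.1% on the KDM1A TG arrays, 29.3 and 51.7% on the nonTG arrays and 39.7, 24.1 and 55.2% on the C57BL/6 arrays. Over all genes it was 52.2, 47.3 and 53.4% on the KDM1A TG arrays, 48.9 and 49% on the nonTG arrays and 44.3, 43.8 and 46% on the C57BL/6 arrays. The heat map of members shows these shares as columns.

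**Figure D1:**
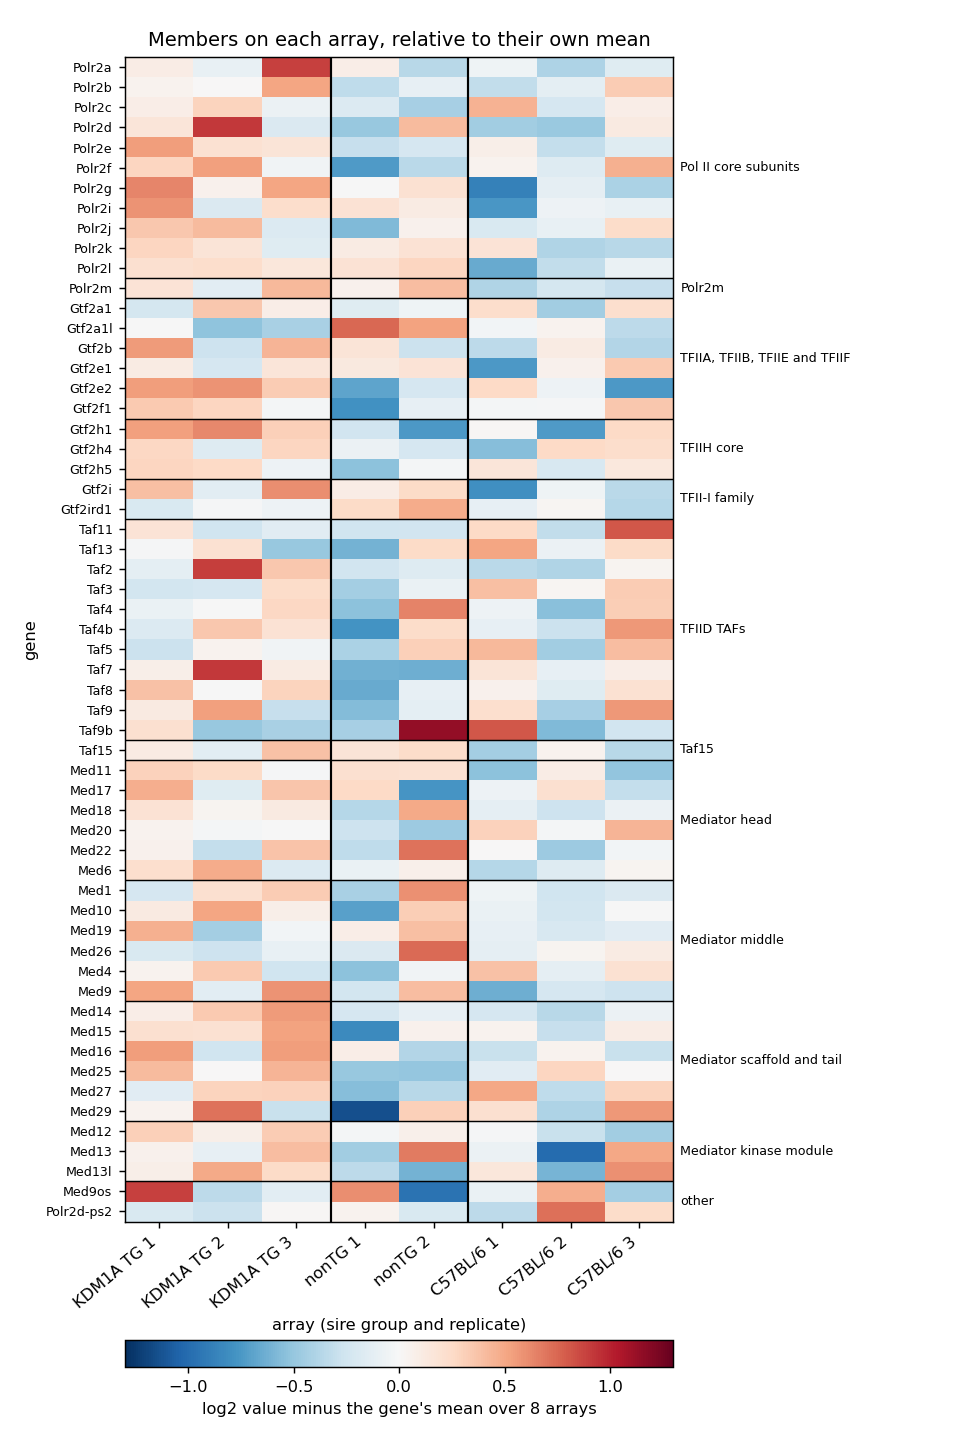
Log2 value of each of the 58 members (rows, by subgroup) on each of the 8 arrays (columns, by sire group and replicate), minus that member's mean over the arrays. Red is above the mean and blue below. The nonTG replicate 1 column is mostly blue, with 18 of the 58 members at their lowest there, and the Taf rows of the TFIID group are mostly red in C57BL/6 replicates 1 and 3.

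The 11 core subunits of RNA polymerase II had a median log2 change of 0.43 for KDM1A TG against C57BL/6, with 10 of 11 above 0. It was 0.15 after quantile normalization, 0.07 after cyclic loess and 0.31 to 0.42 without any 1 array of these groups. The nonTG median relative to C57BL/6 was 0.07, with 6 of 11 above 0, and it was -0.18 without nonTG replicate 2 and -0.03 without C57BL/6 replicate 2. Relative to nonTG, the KDM1A TG median was 0.40, with 9 of 11 above 0, 0.14 after quantile normalization, 0.17 after cyclic loess, 0.21 without nonTG replicate 1 and 0.25 without KDM1A TG replicate 3. Taking each subunit as its deviation from its own mean, the 11 averaged 0.30, 0.23 and 0.16 on the KDM1A TG arrays, -0.19 and -0.02 on the nonTG arrays and -0.23, -0.25 and 0.00 on the C57BL/6 arrays. All 3 KDM1A TG arrays lay above the other 5 on these deposited values, and KDM1A TG replicate 3 was at -0.07 after quantile normalization, below C57BL/6 replicate 3 at 0.13.

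Polr2g codes for the subunit that, with the Polr2d product, forms the stalk near which the growing transcript emerges. Measured log2 levels were 6.78, 6.20 and 6.65 in the KDM1A TG pools, 6.14 and 6.34 in the nonTG pools and 5.26, 6.03 and 5.74 in the C57BL/6 pools. Every KDM1A TG and nonTG pool lay above every C57BL/6 pool, and the KDM1A TG and nonTG pools overlapped. The group means were 6.54 ± 0.30 in KDM1A TG (SD, n = 3), 6.24 ± 0.14 in nonTG (SD, n = 2) and 5.68 ± 0.39 in C57BL/6 pools (SD, n = 3). The log2 change for KDM1A TG against C57BL/6 was 0.87 (SE 0.33, 95% interval 0.22 to 1.51), or 1.82-fold, with an unadjusted limma p of 0.00925 and an adjusted p of 0.21. It was 1.15 with array weights, at an adjusted limma p of 0.00366, and 0.49 with the oviduct mean as a covariate. For both kinds of sires together against C57BL/6 it was 0.75, with an adjusted limma p of 0.238.

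The partner in the stalk, Polr2d, had log2 levels of 4.80, 5.57 and 4.46 in KDM1A TG, 4.15 and 5.06 in nonTG and 4.19, 4.16 and 4.76 in C57BL/6 pools. KDM1A TG replicate 2 was the highest, and all 3 groups overlapped. The pseudogene Polr2d-ps2, which may share sequence with Polr2d so that their signals are uncertain, had levels of 1.43, 1.35 and 1.64 in KDM1A TG, 1.67 and 1.43 in nonTG and 1.29, 2.35 and 1.87 in C57BL/6 pools. Its highest array was C57BL/6 replicate 2, where Polr2d was at its lowest C57BL/6 value.

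Polr2a, the largest subunit, which carries the catalytic centre and the tail that coordinates RNA processing, had log2 levels of 4.52, 4.33 and 5.32 in KDM1A TG, 4.51 and 4.06 in nonTG and 4.37, 4.03 and 4.26 in C57BL/6 pools. KDM1A TG replicate 3 stood apart above the other 7 arrays, and the groups overlapped. Its change for KDM1A TG against C57BL/6 was 0.50 (SE 0.33, limma adjusted p = 0.469). The next largest subunit, Polr2b, which completes the catalytic cleft, had a log2 change of 0.23 in the same comparison.

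Polr2i, a small subunit that guards the accuracy of transcription, had log2 levels of 6.93, 6.17 and 6.58 in KDM1A TG, 6.54 and 6.46 in nonTG and 5.60, 6.28 and 6.26 in C57BL/6 pools. Both nonTG pools lay above all C57BL/6 pools, while KDM1A TG replicate 2 lay among the C57BL/6 values. Its change for KDM1A TG against C57BL/6 was 0.51, with an adjusted limma p of 0.461, and 0.86 with array weights, at an adjusted limma p of 0.0282. Polr2l, a small subunit shared by all nuclear RNA polymerases, was below the filter. It had 2.03, 2.04 and 1.96 in KDM1A TG, 2.01 and 2.10 in nonTG and 1.16, 1.49 and 1.73 in C57BL/6 pools. The C57BL/6 pools were lower than all 5 others, at a level for which no test was made.

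Polr2f, another shared subunit, had a different order of groups, with log2 levels of 6.90, 7.16 and 6.57 in KDM1A TG, 5.88 and 6.27 in nonTG and 6.67, 6.45 and 7.08 in C57BL/6 pools. The nonTG pools lay below all others, and KDM1A TG and C57BL/6 overlapped. The change was 0.80 (SE 0.36, limma adjusted p = 0.772) for KDM1A TG against nonTG and -0.66 (adjusted p = 0.651) for nonTG against C57BL/6. Polr2k, also shared, had the narrowest range of any member over the 8 arrays, 0.67 on the log2 scale, and its values overlapped in all comparisons. Polr2e, a further shared subunit, had every KDM1A TG pool at 6.06 or above and every other pool at 5.98 or below, with a change of 0.43 against C57BL/6.

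Polr2m codes for a protein that binds the polymerase and holds back initiation unless Mediator is present. Its log2 level was 6.16, 5.84 and 6.40 in KDM1A TG, 6.03 and 6.38 in nonTG and 5.59, 5.75 and 5.67 in C57BL/6 pools. All 5 pools of KDM1A TG and nonTG sires lay above the 3 C57BL/6 pools. Its change was 0.46 for KDM1A TG against C57BL/6 (limma adjusted p = 0.494), 0.53 for nonTG against C57BL/6 (adjusted p = 0.699) and 0.49 for both together (adjusted p = 0.479). Polr2g and Polr2m were the 2 tested members whose 5 arrays did not overlap the C57BL/6 arrays, with 2 higher and 0 lower, where 6.15% of genes tested were higher in this way and 2.02% lower.

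**Figure D2:**
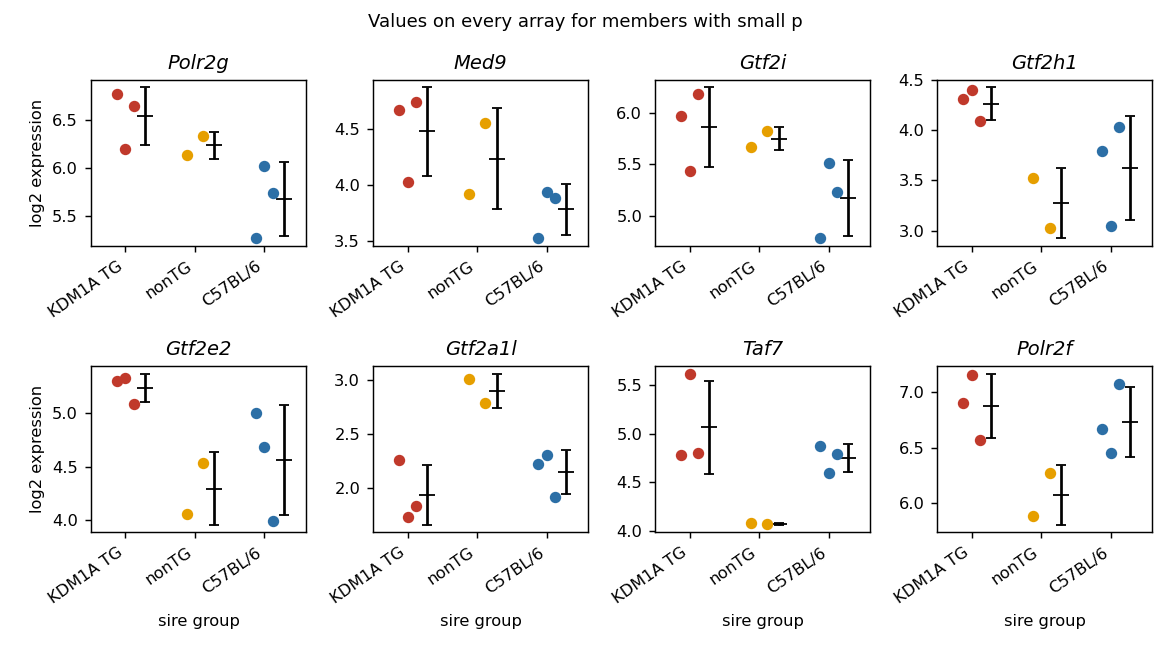
Log2 expression on every array (points) for 8 members with small p, by sire group, with the group mean and SD as a black bar. Each panel has its own axis, which does not start at 0. Polr2g is above all C57BL/6 arrays in KDM1A TG and nonTG pools, Gtf2a1l is highest in nonTG pools, and Taf7 and Polr2f are lowest in nonTG pools.

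The 11 TFIID TAFs had a median log2 change of 0.00 for KDM1A TG against C57BL/6, with 6 of 11 above 0, and it was -0.29 after quantile normalization, -0.36 after cyclic loess, -0.27 without C57BL/6 replicate 2 and 0.23 without C57BL/6 replicate 3. In nonTG relative to C57BL/6 the median was -0.41, with 8 of 11 below 0, but it was 0.03 without nonTG replicate 1, -0.67 without nonTG replicate 2, -0.22 without C57BL/6 replicate 3 and -0.02 with the oviduct mean as a covariate. With KDM1A TG set against nonTG it was 0.19, with 9 of 11 above 0, 0.01 after quantile normalization, -0.03 after cyclic loess and 0.01 without nonTG replicate 1, but 0.59 without nonTG replicate 2 and 0.38 without the wide KDM1A TG replicates 1 and 3.

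Pools of 1 sire group differed in how many TAFs were high. Of the 11 TAFs, 5, 6 and 6 were above their own mean on the KDM1A TG arrays, 0 and 5 on the nonTG arrays and 8, 1 and 10 on the C57BL/6 arrays. Most TAFs were thus high in C57BL/6 replicates 1 and 3 and low in C57BL/6 replicate 2 and nonTG replicate 1. Their mean deviations were 0.00, 0.18 and 0.00 in KDM1A TG, -0.50 and 0.11 in nonTG and 0.21, -0.30 and 0.30 in C57BL/6 pools. The maternal oocyte list had mean deviations of -0.22, 0.47 and -0.13 in KDM1A TG, -0.62 and -0.05 in nonTG and 0.48, -0.40 and 0.48 in C57BL/6 pools, so it was lowest on the same 2 arrays as the TAFs. The 2-cell embryo list, of 14 genes, was likewise lowest on those arrays, at -0.60 in nonTG replicate 1 and -0.28 in C57BL/6 replicate 2. These 2 arrays were not particular to the TAFs. All 58 members together were also lowest there, at -0.25 in nonTG replicate 1 and -0.18 in C57BL/6 replicate 2. So were the Mediator middle, scaffold and tail, and kinase module genes. The polymerase subunits, the Mediator head and the TFIIH core genes, among others, were not. The part of either list in the TAF values was not tested.

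Within an array, the mean deviation of the polymerase subunits minus that of the TAFs was 0.29, 0.05 and 0.16 in KDM1A TG, 0.32 and -0.13 in nonTG and -0.44, 0.06 and -0.30 in C57BL/6 pools. The groups overlapped, since C57BL/6 replicate 2 lay above KDM1A TG replicate 2. The group means of this difference were 0.17 ± 0.12 in KDM1A TG (SD, n = 3), 0.09 ± 0.32 in nonTG (SD, n = 2) and -0.23 ± 0.26 in C57BL/6 pools (SD, n = 3). Quantile normalization gave means of 0.16, 0.08 and -0.21 in the same groups, and cyclic loess gave 0.16, 0.05 and -0.19. This pair of subgroups was set side by side after their values had been seen, so the difference is a description without a test.

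**Figure D3:**
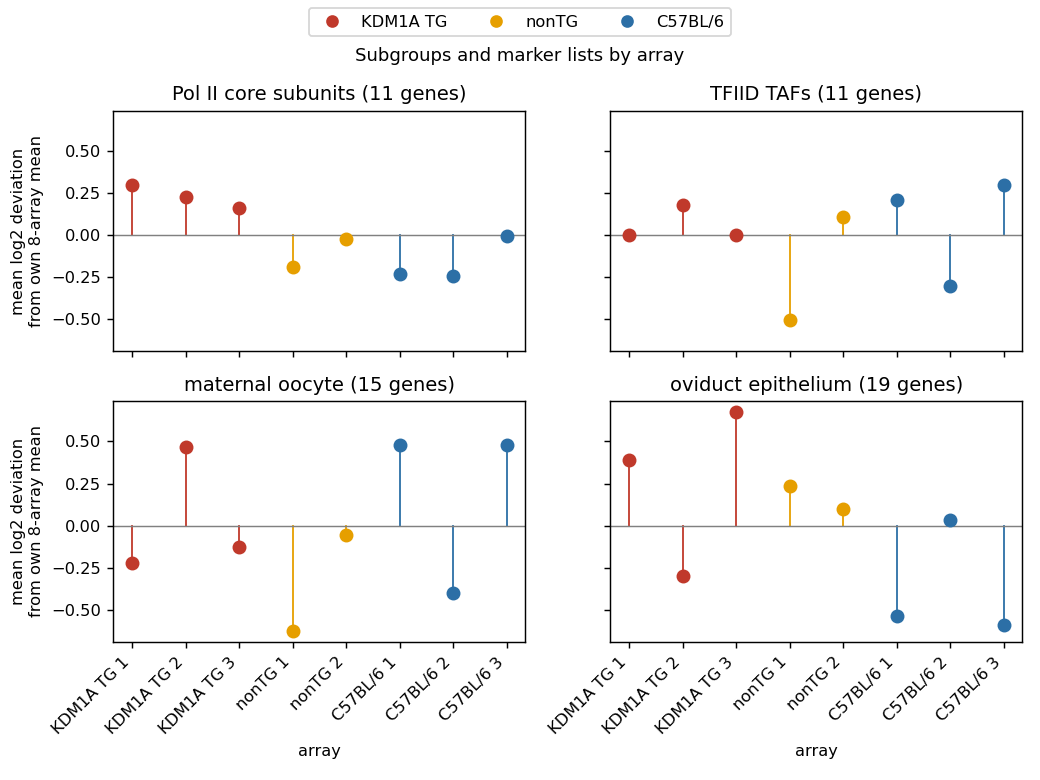
Mean log2 deviation of each list's genes from their own 8-array mean (vertical axis) on each array (horizontal axis), for the polymerase subunits, the TFIID TAFs, maternal oocyte genes and oviduct epithelium markers. The polymerase subunits are above 0 on the 3 KDM1A TG arrays. The TAFs are lowest on nonTG replicate 1 and C57BL/6 replicate 2, the arrays that are also lowest for maternal oocyte genes. All 58 members together, not drawn, are lowest there as well.

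Taf7, which restrains the acetyltransferase activity of TAF1 until initiation, had the smallest p of any member for KDM1A TG against nonTG. Its log2 level was 4.78, 5.62 and 4.80 in KDM1A TG, 4.08 and 4.06 in nonTG and 4.87, 4.59 and 4.78 in C57BL/6 pools. Both nonTG pools were below all 6 others, and KDM1A TG replicate 2 was the highest. The change was 0.995 (SE 0.36, 95% interval 0.27 to 1.72), or 1.99-fold, with an unadjusted limma p of 0.00764 and an adjusted p of 0.603, and it was 0.72 without KDM1A TG replicate 2. Against C57BL/6, the nonTG change was -0.68 (limma adjusted p = 0.632).

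Taf2, which in its complex contacts the initiator element at the start site, had log2 levels of 3.24, 4.26 and 3.72 in KDM1A TG, 3.13 and 3.20 in nonTG and 3.02, 2.98 and 3.40 in C57BL/6 pools. It had the largest positive change of the TAFs for KDM1A TG against C57BL/6, 0.61 (SE 0.33, limma adjusted p = 0.383), and the groups overlapped through KDM1A TG replicate 1. Of the 5 members with the smallest p on the lower side in that comparison, 4 were TAFs. Taf13 and Taf11, a histone-fold pair, were at -0.33 and -0.32, Taf3, which reads a methylated histone H3 tail, was at -0.32, and Taf5, a scaffold of TFIID, was at -0.22. The other was Med20 of the Mediator head, at -0.23, and Taf9b, also at -0.23, had a larger p than these. None of these 5 passed, and with the oviduct mean as a covariate Taf13 was at 0.12 and Taf5 at 0.18.

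Among the TAF paralogs, Taf4b, known for its role in oocytes and female fertility, had log2 levels of 4.32, 4.84 and 4.69 in KDM1A TG, 3.72 and 4.73 in nonTG and 4.39, 4.21 and 5.06 in C57BL/6 pools. Its broadly used paralog Taf4 had 4.22, 4.31 and 4.58 in KDM1A TG, 3.78 and 4.95 in nonTG and 4.25, 3.77 and 4.63 in C57BL/6 pools. Both were low in nonTG replicate 1, and all groups overlapped for both. Taf9b had the widest range of the TAFs, 1.71 on the log2 scale, with 3.75, 3.04 and 3.11 in KDM1A TG, 3.10 and 4.68 in nonTG and 4.34, 2.96 and 3.28 in C57BL/6 pools. Its high values were in nonTG replicate 2 and C57BL/6 replicate 1. Its paralog Taf9 had 6.79, 7.20 and 6.38 in KDM1A TG, 6.11 and 6.55 in nonTG and 6.89, 6.24 and 7.24 in C57BL/6 pools. Its highest pools were C57BL/6 replicate 3 and KDM1A TG replicate 2, where Taf9b was not high. Taf15, an RNA-binding protein of the FET family that associates with TFIID, had 4.63, 4.38 and 4.91 in KDM1A TG, 4.69 and 4.76 in nonTG and 4.08, 4.57 and 4.16 in C57BL/6 pools. Its nonTG pools lay above its C57BL/6 pools, and its KDM1A TG pools overlapped both.

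**Figure D4:**
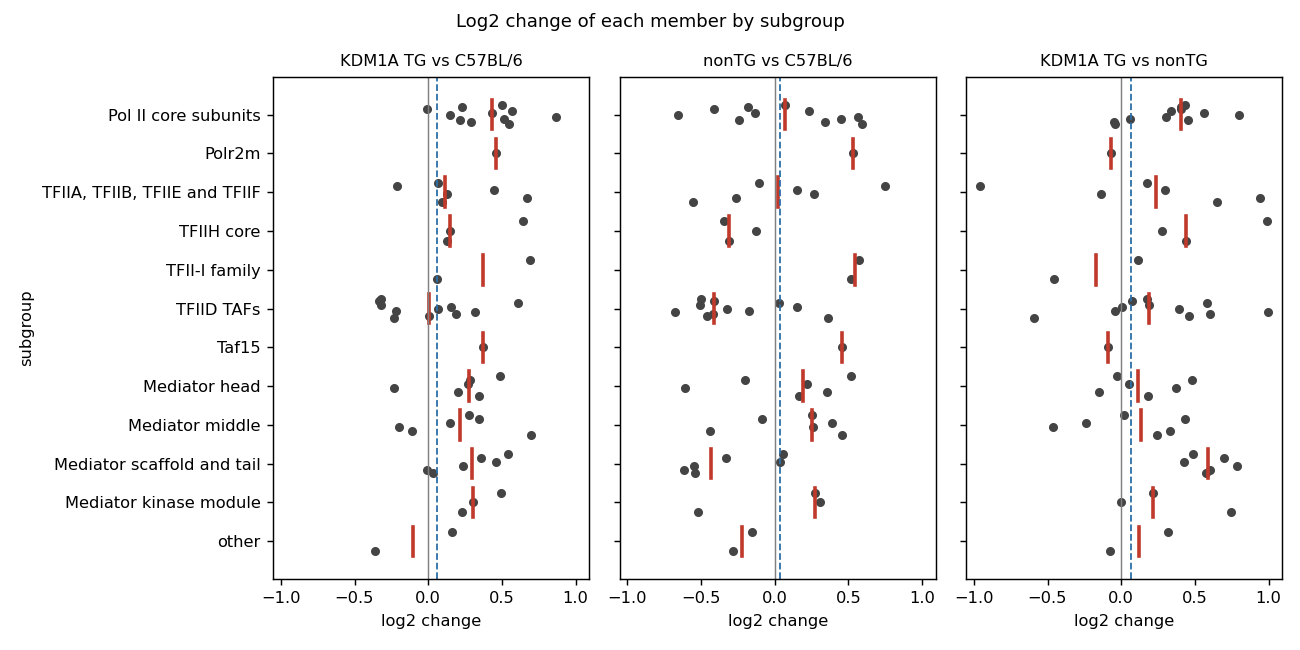
Log2 change of each member (points, vertical spread for legibility alone) by subgroup in the 3 comparisons of sire groups, with the subgroup median in red and the median of all genes as a dashed blue line (0.06, 0.03 and 0.06). The polymerase subunits have medians of 0.43, 0.07 and 0.40 and the TFIID TAFs 0.00, -0.41 and 0.19. The medians over genes tested, not drawn, are 0.18, 0.04 and 0.16.

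Among the other general factors, the 6 genes of TFIIA, TFIIB, TFIIE and TFIIF had median log2 changes of 0.11 in KDM1A TG relative to C57BL/6, 0.02 in nonTG relative to C57BL/6 and 0.24 in KDM1A TG relative to nonTG. Quantile normalization gave 0.08, -0.07 and 0.07 in the same order, and cyclic loess 0.02, -0.19 and 0.08. The first was 0.29 without C57BL/6 replicate 3 and 0.30 with array weights, and the last was 0.15 without nonTG replicate 2. Gtf2e2, a TFIIE subunit, had log2 levels of 5.29, 5.33 and 5.08 in KDM1A TG, 4.06 and 4.53 in nonTG and 5.00, 4.68 and 3.997 in C57BL/6 pools. All 3 KDM1A TG pools were above the other 5, whose values ranged widely. The change was 0.67 (SE 0.33, limma adjusted p = 0.339) against C57BL/6 and 0.94 (SE 0.37, limma adjusted p = 0.695) against nonTG. Gtf2e1, its partner in TFIIE, had changes of 0.13 and -0.14 in the same comparisons. Gtf2f1, the large subunit of TFIIF, had its lowest values in nonTG pools, 4.26 and 4.94, against 5.02 to 5.40 in C57BL/6 pools.

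Gtf2a1l is a paralog of the large TFIIA subunit gene Gtf2a1 and is known for expression in germ cells. Its log2 level was 2.25, 1.73 and 1.83 in KDM1A TG, 3.01 and 2.78 in nonTG and 2.22, 2.30 and 1.92 in C57BL/6 pools. Both nonTG pools lay above all 6 others, which averaged 2.04, under the filter at 2.07. The gene was thus tested only because of its nonTG values, and its fitted values describe that difference without supporting it. The change was 0.75 (SE 0.36, limma adjusted p = 0.578) for nonTG against C57BL/6 and -0.96 (SE 0.36, limma adjusted p = 0.636) for KDM1A TG against nonTG. Gtf2a1 had 6.33, 6.90 and 6.64 in KDM1A TG, 6.40 and 6.50 in nonTG and 6.78, 6.10 and 6.77 in C57BL/6 pools, with all groups overlapping. Its dimmer probeset had 2.092, 2.429 and 2.069 in KDM1A TG, 2.708 and 2.434 in nonTG and 2.938, 2.366 and 2.428 in C57BL/6 pools. On that probeset the nonTG pools lay narrowly above the KDM1A TG pools and overlapped the C57BL/6 pools. The 3 sperm markers with a probeset had mean log2 levels of 2.10 to 2.19 in KDM1A TG, 2.51 to 2.88 in nonTG and 2.07 to 2.70 in C57BL/6 pools. These levels were also near the filter. Of the 3 markers, 2 were tested, and 0 reached an unadjusted limma p under 0.05 in any comparison. Their part in the Gtf2a1l values was not tested.

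The promoters of this pair are shown because the values of Gtf2a1l set the nonTG pools apart while those of the brighter Gtf2a1 probeset overlapped. Each window, from RefSeq on GRCm38.p6, holds 250 bases before and 50 after the start, 5′ to 3′ on the gene's strand, at chr17:88668410-88668709 on the plus strand for Gtf2a1l and chr12:91590438-91590737 on the minus strand for Gtf2a1. Capitals mark matches on either strand to 6 motifs, the TATA box (TATAAA), the CCAAT box (CCAAT), the GC box (GGGCGG), a YY1 core (ATGGCG), an ETS core (CCGGAAG) and an NRF1 motif core (GCATGCG). No motif contains another.
Gtf2a1l: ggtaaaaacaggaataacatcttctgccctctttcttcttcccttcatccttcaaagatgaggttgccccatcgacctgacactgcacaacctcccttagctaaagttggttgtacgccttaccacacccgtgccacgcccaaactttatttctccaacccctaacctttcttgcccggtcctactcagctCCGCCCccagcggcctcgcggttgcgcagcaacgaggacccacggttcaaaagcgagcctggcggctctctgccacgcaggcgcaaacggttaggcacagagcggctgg
Gtf2a1: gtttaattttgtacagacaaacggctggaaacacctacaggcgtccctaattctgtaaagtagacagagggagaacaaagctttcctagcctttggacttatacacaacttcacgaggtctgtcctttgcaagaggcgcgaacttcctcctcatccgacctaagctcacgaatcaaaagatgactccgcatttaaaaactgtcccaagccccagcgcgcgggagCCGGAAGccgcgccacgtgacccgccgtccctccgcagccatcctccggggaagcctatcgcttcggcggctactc
The Gtf2a1l window held 1 GC box and 18 CpG dinucleotides, and the Gtf2a1 window 1 ETS core, no GC box and 22 CpG dinucleotides. Gtf2a1 had 2 windows in the source, and only the first is shown and counted. Over all promoters of this length, 35.9% held a GC box and 9.12% an ETS core.

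The 3 TFIIH core genes had median changes of 0.15 in KDM1A TG relative to C57BL/6, -0.31 in nonTG relative to C57BL/6 and 0.44 in KDM1A TG relative to nonTG. Quantile normalization gave 0.06, -0.34 and 0.26, and cyclic loess 0.06, -0.35 and 0.30. The first was 0.43 with array weights, and leaving out KDM1A TG replicate 1 gave 0.08, while leaving out replicate 2 of that group gave 0.30. The second was -0.20 without nonTG replicate 1, -0.10 without nonTG replicate 2 and -0.14 without C57BL/6 replicate 3, and the last was 0.69 without nonTG replicate 2. Gtf2h1 codes for the subunit of TFIIH that activators and TFIIE bind. Its log2 level was 4.31, 4.40 and 4.08 in KDM1A TG, 3.52 and 3.02 in nonTG and 3.79, 3.04 and 4.03 in C57BL/6 pools. All 3 KDM1A TG pools lay above the other 5, the nearest of which was C57BL/6 replicate 3. The change was 0.99 (SE 0.37, limma adjusted p = 0.627) against nonTG and 0.64 (SE 0.33, limma adjusted p = 0.358) against C57BL/6. Gtf2h5, the smallest subunit, which steadies TFIIH, had 7.06, 7.04 and 6.72 in KDM1A TG, 6.25 and 6.76 in nonTG and 6.94, 6.58 and 6.92 in C57BL/6 pools. Those values overlapped between groups.

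Gtf2i codes for TFII-I, a signal-responsive factor that shares the name but is not part of the core assembly. Its log2 level was 5.97, 5.44 and 6.18 in KDM1A TG, 5.67 and 5.83 in nonTG and 4.78, 5.52 and 5.23 in C57BL/6 pools. The nonTG pools were above all C57BL/6 pools, and KDM1A TG replicate 2 lay under C57BL/6 replicate 2. The change was 0.69 (SE 0.33, limma adjusted p = 0.33) for KDM1A TG against C57BL/6, and 0.57 for nonTG against C57BL/6. The first of these was 0.22 with the oviduct mean as a covariate, and 0.93 with array weights at an adjusted limma p of 0.0177. Its relative Gtf2ird1 had 1.99, 2.17 and 2.12 in KDM1A TG, 2.43 and 2.67 in nonTG and 2.08, 2.21 and 1.81 in C57BL/6 pools, with the nonTG pools above all others. Its 6 other arrays averaged 2.06, also under the filter.

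In Mediator, with KDM1A TG set against C57BL/6, the median changes were 0.28 for 6 head genes, 0.21 for 6 middle genes, 0.30 for 6 scaffold and tail genes and 0.31 for 3 kinase module genes. After cyclic loess these were 0.08, -0.10, -0.01 and -0.04, and after quantile normalization 0.10, -0.02, 0.02 and 0.02. The kinase module median was -0.10 without C57BL/6 replicate 2 and 0.50 without C57BL/6 replicate 3. With nonTG set against C57BL/6 they were 0.19 for the head, 0.26 for the middle, -0.44 for the scaffold and tail and 0.27 for the kinase module, with the same signs under both scalings. Without nonTG replicate 1 the scaffold and tail median was -0.05, the middle 0.63 and the head 0.38, and without nonTG replicate 2 the head, middle and kinase medians were -0.04, -0.23 and -0.26. With KDM1A TG set against nonTG they were 0.12 for the head, 0.13 for the middle, 0.59 for the scaffold and tail, with all 6 genes above 0, and 0.22 for the kinase module. Quantile normalization gave 0.03, -0.07, 0.43 and 0.09, and cyclic loess 0.05, -0.08, 0.43 and 0.12. Without nonTG replicate 1 the head was 0.04 and the middle -0.24, and without nonTG replicate 2 the head, middle and kinase medians were 0.26, 0.55 and 0.57.

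Med9 of the middle module had log2 levels of 4.67, 4.02 and 4.74 in KDM1A TG, 3.92 and 4.56 in nonTG and 3.52, 3.93 and 3.89 in C57BL/6 pools. All KDM1A TG pools lay above all C57BL/6 pools, the closest being 4.02 against 3.93. The change was 0.70 (SE 0.33, limma adjusted p = 0.323), and 0.92 with array weights at an adjusted limma p of 0.0184. Without the wide KDM1A TG replicates 1 and 3 it was 0.24. Med9os, which starts back to back with Med9 on the opposite strand, had 4.86, 3.63 and 3.83 in KDM1A TG, 4.57 and 3.01 in nonTG and 3.88, 4.44 and 3.52 in C57BL/6 pools. Its groups overlapped in every comparison, and it was high on arrays of all 3 groups. The sources used here do not say whether the labelling kept the strand.

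The shared promoter of Med9 and Med9os is shown because it places the starts of these members 67 bp apart and back to back. The starts are at positions 59948214 on the plus strand for Med9 and 59948147 on the minus strand for Med9os of chromosome 11, and their windows, chr11:59947964-59948263 and chr11:59948098-59948397, share 166 bp. Sequences are from RefSeq on GRCm38.p6, 5′ to 3′ on each gene's strand, with the same motifs in capitals.
Med9: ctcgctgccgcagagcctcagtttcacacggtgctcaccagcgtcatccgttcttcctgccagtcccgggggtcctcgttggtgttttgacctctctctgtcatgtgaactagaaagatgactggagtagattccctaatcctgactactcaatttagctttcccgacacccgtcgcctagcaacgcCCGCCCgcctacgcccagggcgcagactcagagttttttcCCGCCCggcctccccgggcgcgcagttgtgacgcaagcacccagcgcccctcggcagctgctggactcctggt
Med9os: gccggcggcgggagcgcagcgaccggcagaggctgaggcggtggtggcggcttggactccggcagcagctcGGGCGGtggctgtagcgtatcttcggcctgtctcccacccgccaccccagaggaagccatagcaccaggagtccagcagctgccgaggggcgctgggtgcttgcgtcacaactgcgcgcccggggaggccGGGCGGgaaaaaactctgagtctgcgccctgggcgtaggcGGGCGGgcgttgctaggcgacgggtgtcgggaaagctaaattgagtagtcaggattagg
The Med9 window held 2 GC boxes, written here as CCGCCC on the strand shown, and the Med9os window held 3. No TATA box was matched in either window.

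Med14, the backbone that joins the Mediator modules, had log2 levels of 4.84, 5.09 and 5.31 in KDM1A TG, 4.54 and 4.65 in nonTG and 4.54, 4.39 and 4.68 in C57BL/6 pools. All 3 KDM1A TG pools lay above the other 5, with a change of 0.54 against C57BL/6 (limma adjusted p = 0.427). Med25, a docking site for activators, had 5.12, 4.72 and 5.16 in KDM1A TG, 4.22 and 4.21 in nonTG and 4.57, 5.00 and 4.72 in C57BL/6 pools. The nonTG pools were below all others, and the change was 0.78 (SE 0.36, limma adjusted p = 0.772) for KDM1A TG against nonTG. Med27 of the tail was also lowest in nonTG pools, at 3.08 and 3.27, against 3.31 to 4.14 in C57BL/6 pools, with a change of -0.61. This held for its brighter probeset alone. The dimmer one had 2.25, 2.34 and 1.51 in KDM1A TG, 1.86 and 2.20 in nonTG and 2.37, 1.63 and 1.88 in C57BL/6 pools, with the groups overlapping. Med29 had the widest range of all members, 1.86 on the log2 scale, with 6.79, 7.45 and 6.46 in KDM1A TG, 5.59 and 7.05 in nonTG and 6.95, 6.34 and 7.31 in C57BL/6 pools. Its lowest value by far was in nonTG replicate 1.

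In the head, Med11 had log2 levels of 5.20, 5.15 and 4.89 in KDM1A TG, 5.11 and 5.10 in nonTG and 4.37, 5.00 and 4.39 in C57BL/6 pools, so that C57BL/6 replicates 1 and 3 were low and replicate 2 was not. Its change for both kinds of sires together was 0.50 (limma adjusted p = 0.472). Med20 was lowest in nonTG pools, at 4.12 and 3.91, against 4.36 to 4.82 in C57BL/6 pools, with a change of -0.61. Med17, a scaffold of the head, ranged over 1.24 on the log2 scale and overlapped between all groups. In the middle module, Med26, a docking site for elongation factors, had 4.17, 4.10 and 4.28 in KDM1A TG, 4.18 and 5.10 in nonTG and 4.26, 4.41 and 4.48 in C57BL/6 pools. Its change of -0.46 for KDM1A TG against nonTG rested on nonTG replicate 2, without which it was 0.0025.

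The kinase module reversibly caps Mediator and restrains its contact with the polymerase. Med12 had log2 levels of 3.52, 3.28 and 3.54 in KDM1A TG, 3.18 and 3.28 in nonTG and 3.19, 2.92 and 2.76 in C57BL/6 pools, with the KDM1A TG pools above all C57BL/6 pools. Its change was 0.49 (limma adjusted p = 0.467). Med13 had 5.72, 5.55 and 6.06 in KDM1A TG, 5.21 and 6.34 in nonTG and 5.58, 4.66 and 6.17 in C57BL/6 pools. Its paralog Med13l had 4.31, 4.73 and 4.50 in KDM1A TG, 3.90 and 3.63 in nonTG and 4.39, 3.64 and 4.83 in C57BL/6 pools. For Med13l all KDM1A TG pools lay above both nonTG pools, with a change of 0.75 (limma adjusted p = 0.775). Both paralogs were low in C57BL/6 replicate 2, but in nonTG replicate 2 Med13 was at its highest and Med13l at its lowest.

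Of 58 members, 50 had a promoter window of 300 bases in RefSeq. Where a gene had several windows, as 9 members did, the first alone was used. The members' median GC content was 59.67%, against 56.67% for 11438 array genes with a window and 52.67% for all 27025 windows so taken. The median number of CpG dinucleotides was 24, against 14 and 7. A GC box lay in 70% of the members' windows, against 47.9% of array genes and 35.9% of all windows. A YY1 core lay in 26%, against 11.8% and 9.24%, an ETS core in 28%, against 12.3% and 9.12%, and an NRF1 motif core in 12%, against 4.9% and 3.64%. TATA boxes (14%, against 13.2% and 14.2%) and CCAAT boxes (36%, against 38.8% and 37.9%) were about as frequent as elsewhere. Of the TFIID TAF windows, 7 of 8 held a GC box, and of the kinase module windows 3 of 3. These matches describe the letters in the windows.

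The median range was 1.06 on the log2 scale over the 58 members and 1.14 over all genes tested. Ranges of the members ran between 0.67 for Polr2k and 1.86 for Med29. Subgroup medians were 0.98 for the polymerase subunits and 1.13 for the TFIID TAFs.

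Other genes of the pathway were listed apart, including the TATA-binding protein, the kinases of TFIIH and Mediator and the elongation factors. Of 52 listed, 36 had a probeset and 35 were tested. None passed with limma in any comparison. At an unadjusted p under 0.05, 5 were higher in KDM1A TG relative to C57BL/6, 1 in nonTG relative to C57BL/6, 2 in KDM1A TG relative to nonTG and 5 for both kinds of sires together, and 0 were lower. The shares of all genes tested that were higher in this way were 12.1%, 4.61%, 4.97% and 10.1% in the same order. Cdc73, of the PAF elongation complex, had log2 levels of 5.06, 5.00 and 5.42 in KDM1A TG, 4.97 and 5.27 in nonTG and 4.70, 4.48 and 3.92 in C57BL/6 pools. All 5 pools of KDM1A TG and nonTG sires lay above the C57BL/6 pools, with a change of 0.78 (limma adjusted p = 0.209) for both together. Supt5, an elongation factor that travels with the polymerase, had 5.56, 5.24 and 5.46 in KDM1A TG, 4.63 and 5.06 in nonTG and 4.52, 4.46 and 5.03 in C57BL/6 pools, with the KDM1A TG pools above the rest. Gpn1, which helps bring the polymerase into the nucleus, had a change of 0.91 (limma adjusted p = 0.705) for KDM1A TG against nonTG. Ercc2, a helicase of TFIIH, had changes of -0.33 for KDM1A TG and -0.67 for nonTG against C57BL/6 (limma adjusted p = 0.62 and 0.649). Its levels were 3.62, 2.89 and 3.46 in KDM1A TG, 3.44 and 2.55 in nonTG and 3.81, 3.48 and 3.68 in C57BL/6 pools. The lowest values were in replicate 2 of KDM1A TG and of nonTG, and nonTG replicate 1 lay close to C57BL/6 replicate 2.

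Tbp, the TATA-binding protein, had log2 levels of 4.23, 4.46 and 3.94 in KDM1A TG, 3.51 and 4.58 in nonTG and 4.04, 3.74 and 4.15 in C57BL/6 pools. The nonTG pools held both its lowest and its highest value. Tbpl2, the paralog that serves in oocytes, was under the filter, with 1.64, 1.63 and 1.56 in KDM1A TG, 1.49 and 2.20 in nonTG and 2.23, 1.97 and 1.86 in C57BL/6 pools. Those values overlapped between nonTG and C57BL/6 pools, and the KDM1A TG pools lay below all C57BL/6 pools at a level that was not tested.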

How the data were processed

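The deposited values are log2 expression per probeset, made by the authors from biotin-labelled cDNA on Affymetrix arrays. Per the submitters' processing notes, R 3.1.0, oligo, RMA and limma were used, with no role or order given. The sources used here do not state background correction or filters. All 8 columns were used as deposited. Without scanner files no value is called above or below background, and the number of arrays limits the precision.

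Of 22961 probesets, 15745 carried 1 symbol, and the brightest stood for each of 574 genes with several. All 58 members were found in RefSeq GRCm38.p6 by gene ID. The members and gene lists were chosen with earlier results of these data known, so nothing here tests them independently. Genes with a mean above the 30th percentile of probesets entered limma 3.58.1 (lmFit, eBayes; R 4.3.3), all arrays sharing 1 spread estimate. Tests were two-sided, and p-values were adjusted by Benjamini-Hochberg over 11444 genes, with a threshold of 0.05. A fit of 5 arrays against 3 joined KDM1A TG and nonTG. The code was tested on simulated data. The genes named were, per comparison, the 5 members of smallest p on each side, the widest and narrowest members per subgroup, Polr2a, the paralog pairs, and the 2 other pathway genes of smallest p per side with Tbp and Tbpl2. Genes named beyond this (Taf2, Polr2b, Polr2d, Polr2e, Polr2i, Polr2l and Gtf2e1, for example) were chosen after their values were seen. Alternatives covered scaling, filters, probesets, array weights, the replicate block, an oviduct covariate and leaving out arrays.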

Additional observations from a re-analysis of the deposited data

How the results depend on the processing

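The count of members called was 0 in all 4 comparisons and in 79 of 81 alternatives, which does not show how far the values moved. The exceptions were array weights, with 4 members for KDM1A TG against C57BL/6 and 2 for both kinds of sires together. Of 56 alternative medians, 48 moved by less than the SD of the members' median over arrays, 0.14. The filters, and leaving out an array of the group not compared, could not move a median, so this count does not measure stability. For KDM1A TG against C57BL/6 the median was 0.029 with quantile normalization and -0.022 with cyclic loess. For KDM1A TG against nonTG it was 0.12 with quantile normalization, 0.14 with cyclic loess and 0.098 without the wide KDM1A TG replicates 1 and 3, an alternative chosen after seeing the data, and leaving out single arrays gave 0.12 to 0.38. For nonTG against C57BL/6 it was 0.084 with the oviduct covariate, and leaving out single arrays gave -0.21 to 0.088. The filters, a looser threshold, other eBayes settings, a fit of the compared groups alone and leaving out uninvolved arrays could not change a direction. Of 1134 values of named genes, which include those fixed ones, 1124 kept their direction. The others were these. For KDM1A TG against nonTG, Cdk19 was 0.00 with array weights, and leaving out single arrays gave -0.69 to 0.46 for Cdk19, -0.24 to 0.024 for Leo1, -1.38 to 0.20 for Taf9b and -0.92 to 0.0025 for Med26. The signs turned without KDM1A TG replicate 2 or nonTG replicate 1 for Cdk19 and Leo1, and without nonTG replicate 2 for Taf9b and Med26. With the oviduct covariate, Taf13 was 0.12 and Taf5 0.18 for KDM1A TG against C57BL/6, and Taf13 was 0.056 for both kinds of sires together. The causes were not tested. Whether the replicate numbers pair the arrays could not be settled. Correlations of deviations from group means between same-numbered arrays were -0.07, -0.38 and -0.11 for KDM1A TG and C57BL/6. They were 0.11 and 0.18 for KDM1A TG and nonTG, and 0.01 and -0.25 for nonTG and C57BL/6. Between arrays of different number, correlations ran from -0.26 to 0.26. Deviations within a group of 2 or 3 arrays sum to 0, so these correlations cannot decide the question. With the replicate number as a block, 0 members passed in the 4 comparisons. The medians were then 0.23, -0.02 and 0.25 for KDM1A TG against C57BL/6, nonTG against C57BL/6 and KDM1A TG against nonTG.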
